A study of Caenorhabditis elegans with 2 samples.

Results

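The 3′ ends described here are those of the proteasome subunit genes of Caenorhabditis elegans, taken from cloned 3′ untranslated regions (3′ UTRs, the stretch of a messenger RNA that follows the stop codon and precedes the poly(A) tail). All 33 genes named pas, pbs, rpt or rpn in the WBcel235 annotation were members. A gene was credited with every interval that overlapped its stop codon plus 3′ UTR by 10 nt or more, and with every interval that began within the 60 nt that lead up to the last base of the stop codon. This rule gave 16 of the 4818 intervals of the deposited list, and they belonged to 15 of the 33 genes.

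The material was total RNA from whole N2 worms, the laboratory wild-type strain, grown on plates with OP50 bacteria and collected at mixed stages, with no treatment or mutation. The cDNA was primed with oligo-dT, each 3′ UTR was amplified with a forward primer for its transcript, and the inserts of 6432 bacterial minipools were pooled and read by pyrosequencing. The labels describe a further run, with 49152 barcoded products and 5952 minipools, that was not analysed here. The list is recorded for the minipool run, and no source used here says whether it also holds reads of the other. It has no replicate and gives positions only, so replicate errors cannot be given, the depth of reading is unknown, and transcript abundance cannot be read from the number or the length of the intervals.

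The proteasome is the protease that degrades proteins marked with ubiquitin. Its 20S core is a barrel of outer α rings, made of the PAS proteins, and inner β rings, made of the PBS proteins. The β subunits PBS-1, PBS-2 and PBS-5 carry the catalytic sites. The 19S cap holds a ring of RPT ATPases, which unfold substrates and feed them into the core, and the RPN proteins, which form the scaffold, the ubiquitin receptors and the lid with its deubiquitinase. The complex is needed in nearly all cells, and its subunits are built in fixed proportions. The forward primer sets the 5′ edge of each product, usually inside the last codons, and the oligo-dT primer sets the 3′ edge at or near the poly(A) tail.

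A 3′ interval was found for 15 of the 33 proteasome genes (45.5%, exact 95% interval 28.1 to 63.6). Among all 19973 annotated protein-coding genes on the 6 chromosomes, 4230 had one (21.2%), and among the 16794 with an annotated 3′ UTR, as all 33 members have, the share was 24.7% (24.0 to 25.3). On chromosome I the counts were 6 of 10 proteasome genes against 26.0% of all genes there, and on the other chromosomes 9 of 23 (39.1%, 19.7 to 61.5) against 20.4%. The genes for which a forward primer was made are not known here. A share above or below that of all genes may come from the genes targeted or those recovered, which was not tested. Intervals in brackets cover counting error only.

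Each part of the complex held genes with a 3′ interval, beside shares of 21.2% of all genes and 24.7% of genes with an annotated 3′ UTR. Of the 20S genes, 2 of 7 pas genes (28.6%, 3.67 to 71.0) and 3 of 7 pbs genes (42.9%, 9.90 to 81.6) had a 3′ interval. Of the 19S genes, 2 of 6 rpt genes (33.3%, 4.33 to 77.7) and 8 of 13 rpn genes (61.5%, 31.6 to 86.1) had one. The intervals of all 4 groups overlap, and no difference between them was tested. Among the β subunit genes, pbs-4, pbs-6 and pbs-7 had 1 interval each, and the catalytic subunit genes pbs-1, pbs-2 and pbs-5 had none, nor did pbs-3, whose product is not catalytic. No contrast by catalysis was tested.

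**Figure D1:**
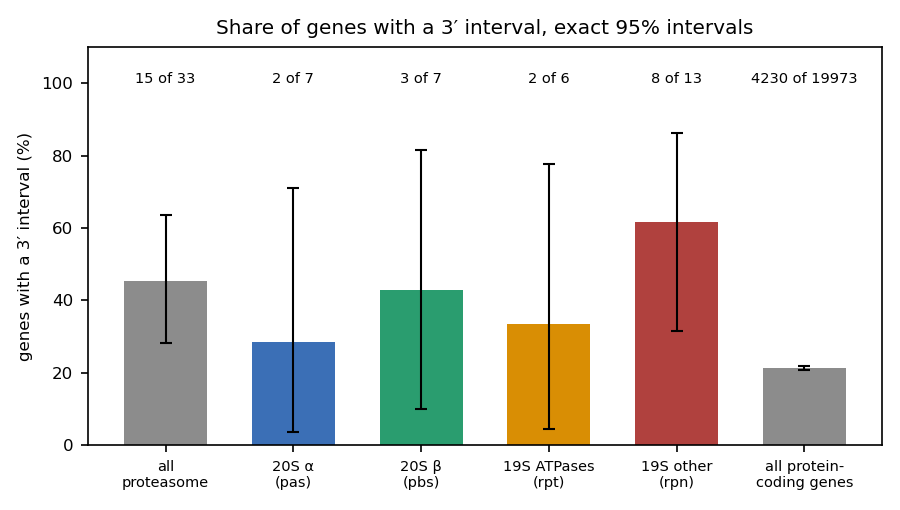
Share of genes with a 3′ interval (%, y axis) for all proteasome genes, for the 4 groups of subunits and for all protein-coding genes (x axis); bars are shares, error bars exact binomial 95% intervals, and the counts stand above. The 8 of 13 rpn genes give the highest bar and the 2 of 7 pas genes the lowest of the proteasome groups, and the error bars of the 4 groups overlap.

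Interval positions are given in the file's own numbering, of a genome build that no source used here names, and stop codons and annotated ends in WBcel235. The numberings differed by a shift that was estimated in 1 Mb windows from stop codons on both strands. At the 16 intervals it lay between −4 and 84 nt. Across 5 estimates of the shift (1, 2 and 3 Mb windows, the nearest 15 intervals on each strand, and the overlap with 3′ UTRs alone), its range at an interval had a median of 5.5 nt and was at most 20 nt. A shift moves the length before and after the stop codon in opposite directions and leaves the interval length as it is, so lengths after the stop codon of proteasome genes whose interval started there are given below with their range over these estimates. Lengths of other genes are given for the 1 Mb windows only.

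**Figure D2:**
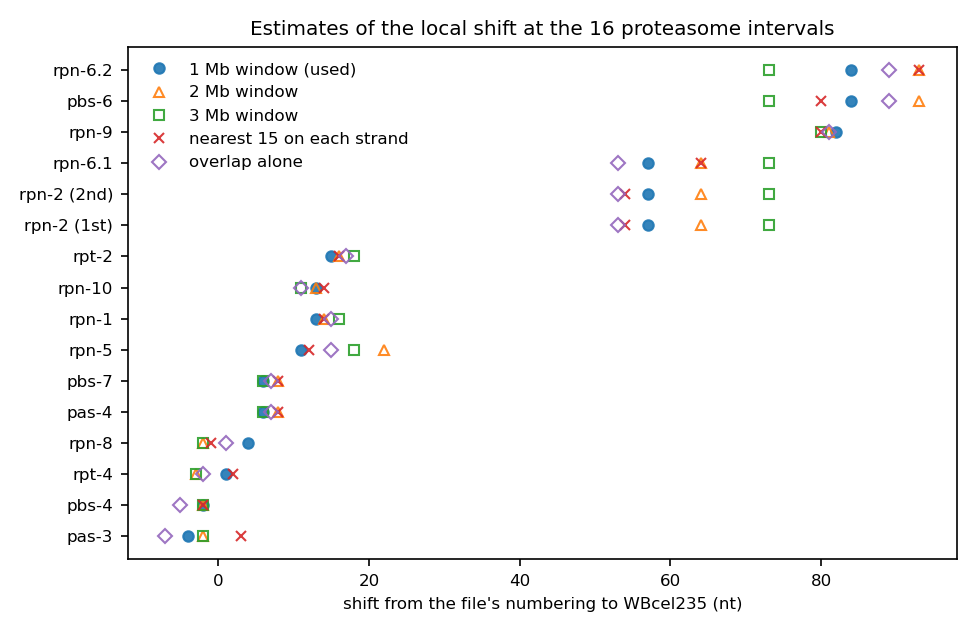
Estimates of the shift from the file's numbering to WBcel235 (nt, x axis) at each of the 16 proteasome intervals (y axis); each symbol is 1 of the 5 estimates. The estimates span 20 nt at each of the 5 intervals on chromosome III (pbs-6, rpn-2, rpn-6.1 and rpn-6.2) and 2 nt at pas-4, pbs-7 and rpn-9.

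In 12 of the 15 genes the interval started at the stop codon, that is, it began within the 60 nt that lead up to the stop codon's last base (80%, 51.9 to 95.7, against 77.6% of all genes with a 3′ interval). The edge lay a median of 25.5 nt before it (range 4 to 48), and the median was 31 nt over the 3282 genes of this kind (interquartile range 27 to 37). That window of 60 nt is also part of the rule, and the shift was estimated from edge-to-stop distances. The share and these distances therefore depend in part on the procedure. The length from the stop codon to the 3′ edge had a median of 161.5 nt over these 12 genes (145 to 224, exact interval of the median), with a range of 113 to 437 nt. Over all 3282 genes the median was 156 nt (152 to 160) and the interquartile range 108 to 237.75 nt. The median of the members lay inside the interquartile range of all genes, and so did 10 of the 12 values, with rpn-6.2 and rpn-10 above it.

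**Figure D3:**
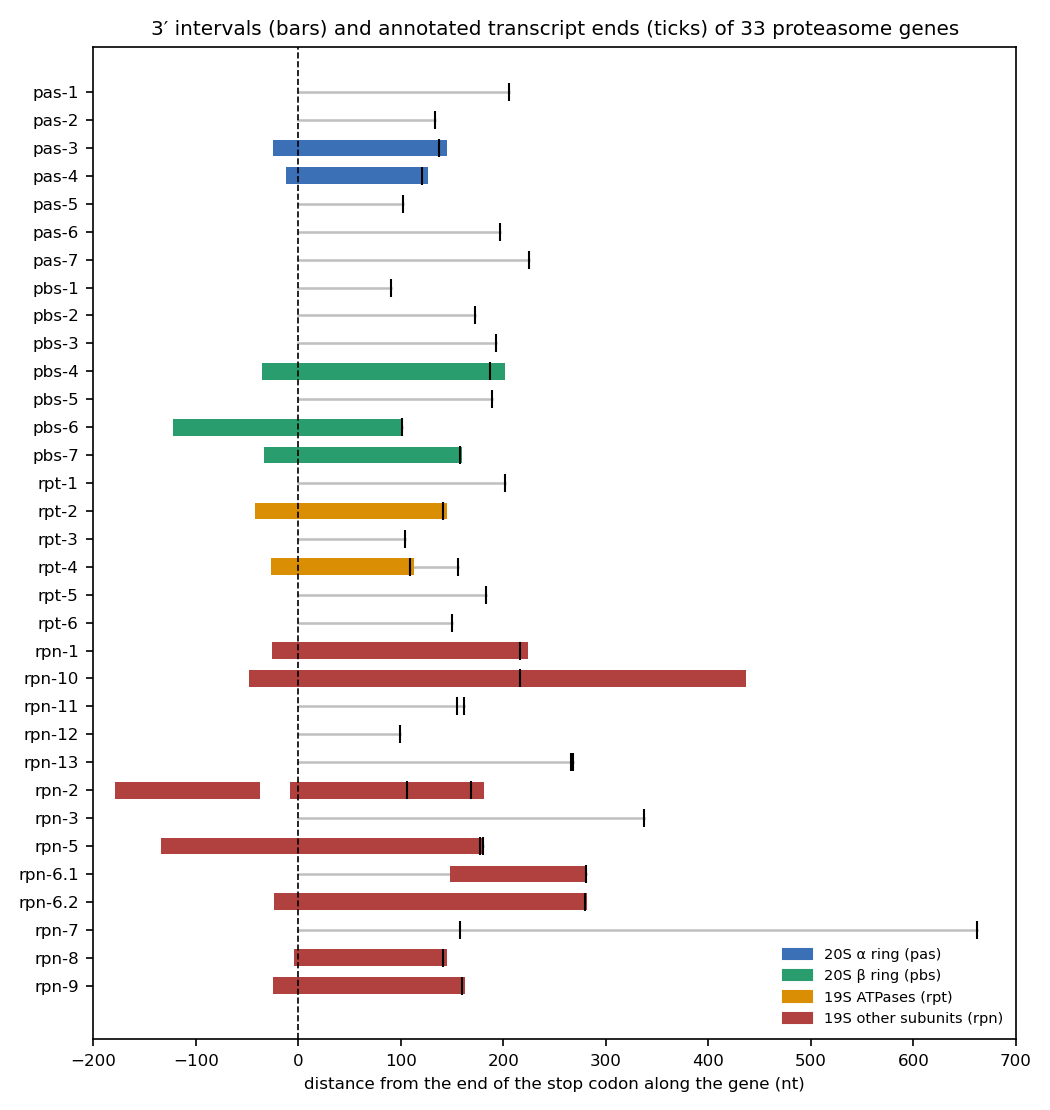
Map of all 33 proteasome genes (y axis) along the distance from the end of the most downstream stop codon (nt, x axis, dashed line at 0); bars are the 16 intervals after the shift, ticks annotated transcript ends, grey lines annotated 3′ UTRs. Most bars begin just left of the line and stop at a tick, rpn-10 runs to 437 nt, and rpn-6.1 begins 148 nt to the right of the line.

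The α ring encloses the gate through which substrates enter the core. pas-3, an α subunit gene, had an interval of 171 nt (chromosome I, 5105106 to 5105276). It reached 145 nt past the stop codon (138 to 148 over the shift estimates), and its edge lay 8 nt (1 to 11) beyond the annotated end. pas-4, the gene of another α subunit, had 139 nt (I, 8727207 to 8727345), of which 126 nt (124 to 126) followed the stop codon, and it ended 5 nt beyond the annotated end. Both lengths lay under the median of all genes, at percentiles 44.6 and 35.1. The genes pas-1, pas-2, pas-5, pas-6 and pas-7 had none. Their annotated 3′ UTRs measured 205, 133, 102, 197 and 225 nt.

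Among the β ring genes, pbs-7 had an interval of 195 nt (I, 8695197 to 8695391), with 160 nt (158 to 160) after the stop codon and its edge 2 nt (0 to 2) past the annotated end. The interval of pbs-4 measured 238 nt (I, 3909481 to 3909718) and reached 202 nt (199 to 202) past the stop codon, 15 nt (12 to 15) beyond the annotated end. It also covered 60 nt of the stop codon and 3′ UTR of mrrf-1, the gene on the opposite strand, and its other edge lay 30 nt before the end of the mrrf-1 stop codon. As the file gives no strand, each edge of this interval may belong to either gene's product. For pbs-6 the interval of 223 nt (III, 8243039 to 8243261) started 122 nt upstream of the stop codon's last base. That edge lay 6 nt outside the start of the last coding exon, within the 20 nt range of the shift there. Its 3′ edge was −1 nt from the annotated end (−10 to 10 over the shift estimates). pbs-1, pbs-2, pbs-3 and pbs-5 had no interval at their 3′ ends, and pbs-1 has the shortest annotated 3′ UTR of the 33 genes, 90 nt.

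Both ATPase genes with an interval had 3′ ends below the median length of all genes, at percentiles 27.5 and 44.6. rpt-4 had 141 nt (II, 42249 to 42389), of which 113 nt (112 to 117) followed the stop codon, the shortest of the 12. Its annotated models end at 109 and 156 nt after the stop codon. The interval ended 4 nt (3 to 8) past the nearer end and 43 nt short of the farther one, so only the shorter form lies in the list. rpt-2 had 188 nt (V, 6016040 to 6016227), with 145 nt (142 to 145) after the stop codon and an edge 4 nt (1 to 4) past the annotated end. It also covered 33 nt of the stop codon and 3′ UTR of fos-1 on the opposite strand, the gene of a Fos-family transcription factor, but only rpt-2 had its stop codon near an edge. rpt-1, rpt-3, rpt-5 and rpt-6 had none, with annotated 3′ UTRs of 202, 104, 183 and 150 nt.

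The rpn genes included the longest of the 16 intervals. rpn-1, which encodes a large scaffold subunit at the base of the cap, had 251 nt (IV, 6906399 to 6906649), with 224 nt (221 to 224) after the stop codon and an edge 8 nt past the annotated end. rpn-8, the partner of the RPN-11 deubiquitinase in the lid, had 150 nt (I, 4177122 to 4177271) with 145 nt (139 to 145) after the stop codon, and rpn-9, a lid subunit gene, had 189 nt (II, 11237362 to 11237550) with 163 nt (163 to 165). They ended 4 nt and 3 nt past their annotated ends. The 5′ edge of rpn-8 lay only 4 nt before the end of its stop codon, at percentile 0.548 of all genes, and the shift estimates there lay between −2 and 4 nt.

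rpn-10 encodes a ubiquitin receptor. Its interval of 486 nt (I, 10730478 to 10730963) was the longest of the 16, and 437 nt (436 to 439) followed the stop codon, at percentile 97.5 of all genes. The annotated 3′ UTR is 216 nt long, so the edge lay 221 nt beyond it. The interval also covered 69 nt of the stop codon and 3′ UTR of B0205.12 on the opposite strand, whose stop codon was not within 60 nt of an edge. Whether the far edge belongs to an rpn-10 product or to one of B0205.12 was not tested, because the file holds no strand.

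rpn-6.1 and rpn-6.2 are paralogues for the same lid subunit. rpn-6.2 had an interval of 307 nt (III, 8999731 to 9000037), with 282 nt (273 to 293) after the stop codon, ending 2 nt past the annotated end. The interval of rpn-6.1 measured 133 nt (III, 6959054 to 6959186) and lay wholly inside the 3′ UTR. It started 148 nt after the stop codon and ended 1 nt short of the annotated end, 280 nt after the stop codon. The annotated 3′ UTRs of the paralogues are 281 and 280 nt long, and with the shift used both intervals ended within 2 nt of them. Over the shift estimates these distances ran from −17 to 3 nt in rpn-6.1 and from −7 to 13 nt in rpn-6.2. No source used here says how reads that match both paralogues would have been placed.

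rpn-5, a lid subunit gene, had an interval of 315 nt (II, 4696407 to 4696721) whose 5′ edge lay within the last coding exon, 134 nt upstream of the stop codon's last base, and ended 0 nt (−11 to 0) from the annotated end, 180 nt after the stop codon. rpn-2, the gene of the other large scaffold subunit, was the only member with more than 1 interval by the rule, against 85 of all 4230 genes. Its models differ at the 3′ end. In one, the reading frame stops at 6202046 and the transcript ends at 6202532, and in the other an intron is removed, the frame stops at 6202426 and the transcript ends at 6202594. One interval of 190 nt (III, 6202361 to 6202550) started 8 nt before the end of the later stop codon and ended 181 nt (177 to 197) after it, 13 nt (9 to 29) past the end of that model. A further interval of 143 nt (III, 6202190 to 6202332) lay 28 nt upstream of it, inside the last coding exon of the spliced model, which is 3′ UTR in the other. It ended 143 nt short of any annotated end, so it adds no annotated 3′ end. One more row, 145 nt long (III, 6201837 to 6201981), fell just outside the rule. It was coding along its whole length and ended 4 nt before the end of a coding exon and 8 nt before the end of the earlier stop codon.

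The genes without a 3′ interval included rpn-11, the lid's deubiquitinase, rpn-13, a ubiquitin receptor, and the lid subunit genes rpn-3, rpn-7 and rpn-12. rpn-7 has annotated ends at 158 and 662 nt after the stop codon, the latter the longest 3′ UTR of the 33 genes. Of the 18 genes without an interval, 14 had no interval of any gene within 600 nt. The same count was not made over all genes without an interval, so it cannot be read as a trait of these genes. The nearest one to rpn-12 lay 12 nt beyond its 3′ end and was given to nep-1, a neprilysin gene on the opposite strand. Near pas-1 (100 nt) and pbs-3 (214 nt) the interval lay on the 5′ side and was given to rpoa-12 and ulp-2. That near pbs-5 lay 423 nt beyond its 3′ end and was given to no gene.

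The annotated 3′ UTRs of genes with and without an interval overlapped in length. Their median was 160 nt (141 to 216) in the 15 genes with an interval and 186 nt (133 to 205) in the 18 without, and 180 nt (150 to 202) over all 33, against 131 nt (128 to 133) over all genes with an annotated 3′ UTR. The lengths ran from 101 to 486 nt in the genes with an interval and from 90 to 662 nt in those without. None of the members' annotated 3′ UTRs holds an intron. The shortest interval in the file measured 96 nt. Its part in which genes lack an interval was not tested.

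**Figure D4:**
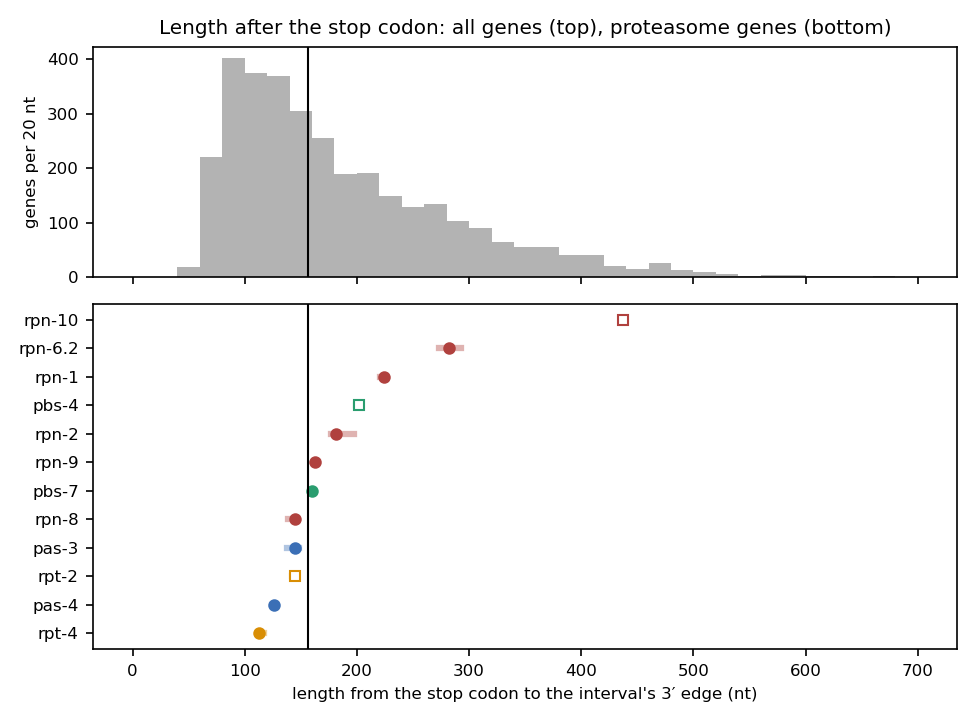
Length from the stop codon to the 3′ edge (nt, x axis) for all 3282 genes with an interval that starts there (top, genes per 20 nt) and for the 12 proteasome genes (bottom, 1 row a gene, bars the range over 5 shift estimates, open squares intervals that also reach a gene on the opposite strand); vertical lines mark the median of all genes, 156 nt. The proteasome genes run from 113 nt (rpt-4) to 437 nt (rpn-10) on both sides of that line.

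The 3′ edges of the proteasome genes lay close to annotated transcript ends. Taking the interval that reached furthest downstream in each gene, 14 of 15 edges (93.3%, 68.1 to 99.8) lay within 20 nt of an annotated end, and rpn-10 was the exception. Over all genes with a 3′ interval the share was 56.5%. Some of these lack an annotated 3′ UTR, start elsewhere or reach a second gene. Among genes with an annotated 3′ UTR and an interval that started at the stop codon and reached no gene on the other strand, it was 63.8% of 2639, and 9 of 9 proteasome genes (100%, 66.4 to 100). The edge lay downstream of the annotated end in 12 of the 15, upstream in 2 (pbs-6 and rpn-6.1, by 1 nt each) and 0 nt from it in rpn-5. Over all 4230 genes with a 3′ interval, it lay downstream in 2361, upstream in 1705 and 0 nt away in 164. The median distance was 4 nt (2 to 8) in the members, against 2 nt (1 to 2) for all genes. Distances of this size are within the range of the shift estimates. The annotation is not known to be independent of these clones.

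**Figure D5:**
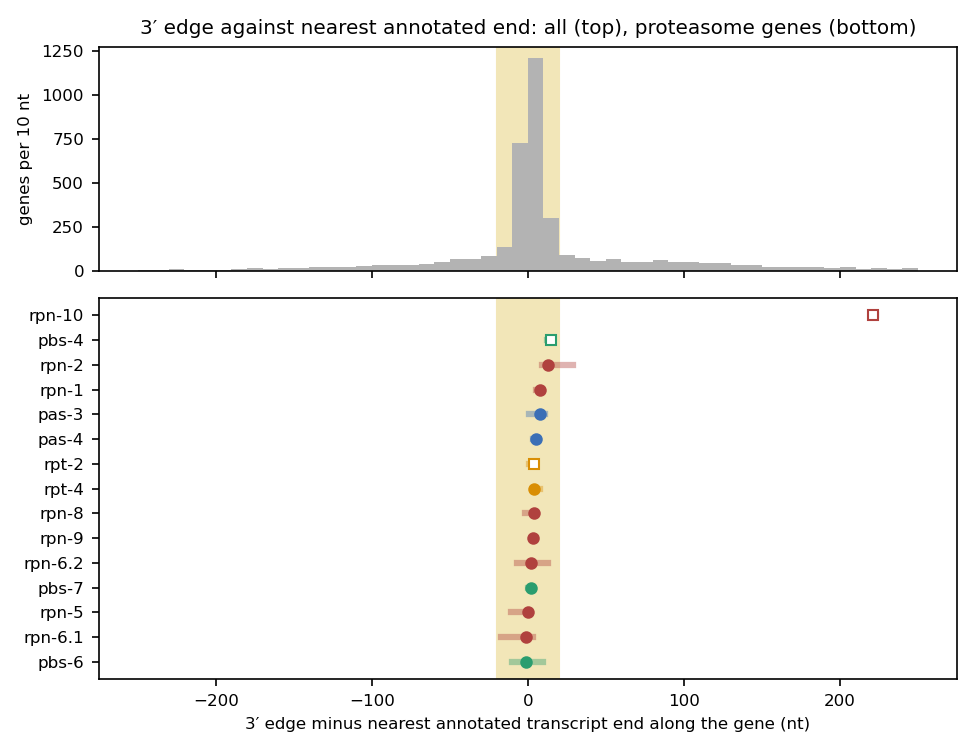
Distance of the 3′ edge from the nearest annotated transcript end (nt, x axis, downstream positive) for all genes (top, genes per 10 nt, shown to 250 nt either way) and for the 15 proteasome genes (bottom, symbols and bars as in the plot of lengths after the stop codon); the shaded band covers 20 nt either side. All proteasome genes but rpn-10, at 221 nt, sit between −1 and 15 nt.

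Apart from the 3′ ends, rpn-9 held a second row, 286 nt long (II, 11238501 to 11238786), of which 237 nt were coding in 2 exons. It ended 976 nt upstream of the stop codon's last base and was not taken by the rule. The list therefore held 2 rows in the bodies of the 33 genes that did not meet the rule, this one and the rpn-2 row of 145 nt.

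Genes that act with the proteasome were listed by name as further members of the pathway. The lists were chosen with earlier results of these data known, so their shares describe these genes and test nothing. Of 49 such genes, 22 had a 3′ interval (44.9%, 30.7 to 59.8). The share was 21.2% over all genes and 24.7% over genes with an annotated 3′ UTR. Of the 22, 18 started at the stop codon and ran a median of 214 nt past it. A list of genes whose products assist, bind or regulate the proteasome included skn-1. It had an interval for 7 of 10 genes (70%, 34.8 to 93.3, against 21.2% of all genes). The 5 that started at the stop codon ran a median of 219 nt past it. dss-1, the gene of a small 19S subunit, had 267 nt after the stop codon and ended 1 nt past the annotated end. rad-23, which encodes a shuttle for ubiquitinated proteins, had 348 nt and ended 2 nt past it. ubh-4, the gene of a deubiquitinase of the cap, had 101 nt and ended upstream of it, at −8 nt. psme-3, the gene of an activator of the core, reached 219 nt and psmd-9, the gene of an assembly chaperone, 197 nt, and both ended past their annotated ends, by 54 and 108 nt. The psmd-9 interval also reached B0252.3, so its far edge may belong to that gene. The interval of usp-14, a proteasome-bound deubiquitinase gene, measured 417 nt and did not start at the stop codon.

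skn-1 encodes the transcription factor whose proteasome-regulating form raises subunit genes when proteasome function is impaired. The only interval over its 3′ end (IV, 5650941 to 5651062, 122 nt) also reached csn-5 on the opposite strand, whose stop codon lay near the edge. It extended 92 nt past the csn-5 stop codon and ended −1 nt from the annotated csn-5 end. Its other edge lay 82 nt past the nearest annotated skn-1 end, and the interval was counted for both genes. ddi-1 and png-1, whose products process that form of SKN-1, had none.

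The COP9 signalosome, whose subunits resemble those of the lid, had an interval for 4 of 6 genes (66.7%, 22.3 to 95.7, against 21.2% of all genes). The lengths after the stop codon were 124 nt in csn-2, 129 nt in csn-3, 92 nt in csn-5 and 180 nt in csn-6, and all 4 ended within 20 nt of an annotated end, against 56.5% of all genes with an interval. Of the E2 ubiquitin-conjugating enzyme genes 6 of 21 had an interval (28.6%, 11.3 to 52.2, close to the 21.2% of all genes), and these ran a median of 249 nt past the stop codon. They ran from 71 nt in ubc-1 and 76 nt in ubc-14 through 209 nt in ubc-6 and 289 nt in ubc-16 to 339 nt in ubc-7 and 344 nt in ubc-3, and 3 of the 6 ended within 20 nt of an annotated end, against 56.5% of all genes with an interval. The ubc-1 interval lay −1010 nt from the nearest annotated end, the minus sign marking upstream.

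CDC-48 is the ATPase that extracts ubiquitinated proteins from membranes and complexes. In its pathway 4 of 9 genes had an interval (44.4%, 13.7 to 78.8, against 21.2% of all genes). Those of ufd-2, chn-1 and sel-11, which encode ubiquitin ligases, reached 260, 315 and 235 nt after the stop codon. That of cdc-48.2 did not start at the stop codon, ended 94 nt past the nearest annotated end and also reached ints-11. uba-1, the ubiquitin-activating enzyme gene, had an interval of 217 nt that ended 5 nt past the annotated end and also reached mam-2. The ubiquitin genes ubq-1 and ubq-2 had none. Counts this small, taken beside an unknown list of primers, describe these genes and were not tested against each other.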

How the data were processed

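The authors deposited 1 list of intervals for the minipool run, a BED file of starts and ends in nt without header. Its score column, as deposited by the authors, holds 0 throughout and its strand column a plus sign, so neither was used. How reads were assembled and aligned, the filters and the build are not stated in the labels. Genes came from Ensembl release 115, assembly WBcel235. In each 1 Mb window (2 or 3 Mb where fewer than 3 intervals per strand gave a value) intervals were moved by up to 6000 nt to find the best overlap with 3′ UTRs. The shift was then set to the difference, divided by 2, of the median edge-to-stop distances of the strands (distances to 120 nt). The shifted positions served only to assign genes and distances. An interval may count for several genes. The procedure was run on simulated intervals that all began near a stop codon and ended at an annotated end. The list also holds intervals that do neither, so this run cannot show how the procedure performs on them. Members, gene lists and limits were chosen with earlier results of these data known. The text names every proteasome gene and every other listed gene with an interval. Exact Clopper-Pearson 95% intervals are given for shares, and order-statistic intervals for medians. Python 3.11.15, pandas 2.3.3, numpy 2.4.6 and scipy 1.17.1 were used. With 1 list no test was made. No sequence is shown, since no genome was used here. Alternatives covered the shift, the overlap, the distance to the stop codon, the tolerance, shared intervals and chromosome I.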

Additional observations from a re-analysis of the deposited data

How the results depend on the processing

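No paired analysis was possible because 1 list was analysed, and leaving out a replicate could not be done for the same reason. The number of proteasome genes with an interval, the median length after the stop codon, the median interval length and the number of ends within 20 nt of an annotated end were recomputed under 15 other settings and 1 added after seeing the data (only intervals that start at the stop codon). Of 55 values, 52 stayed within 1.5 times the count or inside the interval of the median. These limits are wide, since for the length after the stop codon that interval ran from 145 to 224 nt. The lengths after the stop codon of single genes were also recomputed under the other settings of the shift. Of these, 50 values changed and 6 did not. Without any shift, 9 of 16 edges lay within 20 nt of an annotated end in place of 14 of 15, where the estimated shifts reached 84 nt, and rpn-12 gained an interval. Without chromosome I, 9 of 23 genes had an interval and 9 of 9 edges lay within 20 nt, counts that fell because fewer genes were counted. With 3 Mb windows 13 of 15 edges lay within 20 nt, and 11 genes started at the stop codon. The same 15 genes had an interval under the 5 other settings of the shift, none at all included, and under both overlaps and both distances. The depth is unknown, so a gene without an interval may have been read too little or not targeted.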
